A study of Mus musculus with 5 samples.

Results

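Plasmacytoid dendritic cells of the mouse liver were picked out of 5 single-cell RNA libraries by 4 marker genes: Siglech, a surface lectin of these cells, Cox6a2, a subunit of cytochrome c oxidase, Ccr9, a chemokine receptor, and Klk1, a kallikrein. A barcode was taken when it held at least 1000 unique molecular identifiers (UMIs, each a counted RNA molecule) from at least 500 genes, with a mitochondrial part under 30%, and when at least 2 of the 4 markers were detected, Siglech among them. The members were thus chosen by their counts of these 4 genes. The rule found 344 such barcodes among 104143 that passed the same limits on UMIs, genes and mitochondrial share. There were 13 at postnatal day 14 (P14), 62 in the adult control and 75, 145 and 49 in the libraries taken 24, 48 and 96 h after the operation. Partial hepatectomy (PHx) cuts away liver lobes, and the organ then regrows.

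The mice were C57BL/6J. The P14 library came from normal mice and the 4 adult libraries from animals given as 8 weeks old. The adult control is named so by its title and source, although the treatment text lists surgery for all adult samples. Livers were perfused, dead cells were depleted, and 10x v3 chemistry gave 1 library per group. Neither the number nor the sex of the animals is given. With 1 library each there are no replicates. No difference below has a test, and every interval is exact, at 95%, and covers counting error only. The description code of the adult control ends in 2 and the other 4 end in 1. What it marks is not stated, and whatever it marks cannot be told apart from the group in a comparison with the adult control.

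Plasmacytoid dendritic cells are blood-borne cells that sense viral nucleic acids through the endosomal receptors TLR7 and TLR9 and then secrete large amounts of type I interferon. Their identity is held by the transcription factor Tcf4, also called E2-2, together with Irf8, Runx2 and Spib. In the liver they present antigen weakly compared with conventional dendritic cells and have been described as promoting tolerance.

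The members carried far more RNA than an average passing barcode, but they were not the deepest leukocytes. Monocyte barcodes had a higher median depth in each library (10757 to 33693 UMIs). B-cell (3230 to 10216) and T-cell barcodes (4877 to 9202) had a lower one. The members' median depth was 11062 UMIs at P14, 9414 in the adult control and 7528, 9724 and 8954 after 24, 48 and 96 h. Their summed UMIs were 206820, 646606, 588306, 1564005 and 441534. Most came from complete marker sets: 204 held all 4 markers, 113 held 3 and 27 held 2. Just inside the threshold, members with 2 markers had a median of 9, 5, 3, 3.5 and 9 Siglech UMIs in the 5 libraries in that order, and just outside it 108 barcodes with Siglech as the only marker had a median of 1 UMI of it in each library. These values chose the members and are given as a description. Among mature B-cell barcodes that were not members, Siglech was seen in 2 of 335 at 48 h and in 0 of 74, 190, 87 and 334 in the others. Barcodes that also met another class rule were kept here. A further 3 B-cell barcodes at 48 h and 1 at 96 h were members, and so held Siglech, but are outside these counts.

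**Figure D1:**
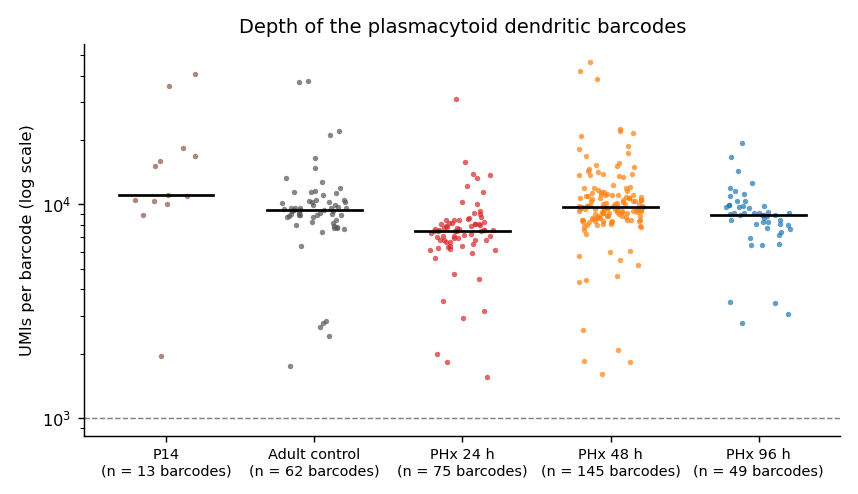
UMIs per barcode (log axis) of the plasmacytoid dendritic cell barcodes in each library; each point is 1 barcode, bars are medians and the dashed line is the 1000 UMI limit. The medians lie between 7528 and 11062, well above the limit, and P14 has 13 points only.

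No barcode sequence was a member in more than 1 library, though 10 members' barcode sequences also passed in another library. No doublet removal was applied. Instead, members that also met the marker rule of another class were counted, and 28 of the 344 met one other than the rule for type 2 conventional dendritic cells, 16 of them at 48 h. That conventional rule was met by 4 of the members at P14, 21 in the adult control and 20, 53 and 18 after 24, 48 and 96 h, and nearly every barcode that met it was a member (21 of 23 in the adult control), so no comparison with conventional dendritic cells could be made. Neutrophil markers summed to 45255 UMIs per 1000000 (CPM) in the P14 members and to 5608, 2805, 165 and 7.35 in the adult control and at 24, 48 and 96 h. For S100a9, a neutrophil calprotectin subunit, all 4497 P14 UMIs lay in 1 barcode and the 1830 adult UMIs in 4. The neutrophil rule was nevertheless met by 0 of the 13 P14 members. No class rule covered hepatocytes, so barcodes mixed with them are not in the count of 28. Hepatocyte markers made up at most 4.72% of a member's UMIs without mitochondrial genes at P14 and 9.62% in the adult control. After 24, 48 and 96 h the highest share was 6.07%, 7.07% and 9.66%. Only 8 marker genes were counted, so these shares do not limit the whole hepatocyte RNA of a member. The adult barcode at 9.62% held 22091 UMIs with a mitochondrial share of 24.0%, where the adult members had medians of 9414 UMIs and 5.98%.

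As a share of leukocyte barcodes, the members stood highest early in regeneration. A leukocyte barcode had to hold Ptprc, which encodes the pan-leukocyte protein CD45, and to be a member or meet the marker rule of a leukocyte class. Of the members, 12 of 13 at P14, 55 of 62 in the adult control and 70 of 75, 142 of 145 and 48 of 49 after 24, 48 and 96 h held Ptprc, and only these enter the shares. They were 6.00% of 200 leukocyte barcodes at P14 (Clopper-Pearson interval 3.14 to 10.2) and 6.20% of 887 in the adult control (4.71 to 7.99). After surgery they were 13.3% of 525 such barcodes at 24 h (10.5 to 16.5). At 48 h the share was 12.8% of 1109 (10.9 to 14.9), and at 96 h it was 7.95% of 604 (5.92 to 10.4). The 24 h and 48 h intervals lay above that of the adult control, and the 96 h interval overlapped it. Without members that met another class rule the shares were 3.49% in the adult control and 8.95%, 7.03% and 4.97% after 24, 48 and 96 h. How far dissociation, dead cell removal and the neutrophils and other leukocytes that make up the denominator set these shares was not tested.

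Levels were compared on CPM summed over the members of a library, leaving out mitochondrial genes, as a log2 ratio of CPM plus 10. A gene was compared where it reached 100 CPM in either library and was called higher or lower past a 2-fold difference. Folds given in the text are plain CPM ratios. All comparisons with the adult control share that library, so its own oddities enter each of them. At P14, 111 of 1963 genes were higher (5.65%) and 290 lower (14.8%). At 24 h, 33 of 1902 were higher (1.74%) and 164 lower (8.62%), at 48 h 27 of 1893 were higher (1.43%) and 197 lower (10.4%), and at 96 h 15 of 1906 were higher (0.787%) and 115 lower (6.03%). The median over all compared genes was −0.06, 0.05, 0.07 and 0.05 in these 4 comparisons. Between operated libraries, 11 of 1753 genes were higher (0.627%) and 35 lower (2%) at 48 h than at 24 h, and 92 of 1816 were higher (5.07%) and 28 lower (1.54%) at 96 h than at 48 h.

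Most of the lower calls were genes that the free RNA of the suspension also carried. Barcodes ranked after 20000 and up to 60000 by UMIs, taken as free RNA, held a median of 1330 UMIs in the adult control against 460 at P14, 665 at 24 h, 287 at 48 h and 775 at 96 h. From that background, 20% or more of the higher library's UMIs were to be counted as free RNA for 223 of the 290 genes lower at P14, 156 of 164 at 24 h, 191 of 197 at 48 h and 98 of 115 at 96 h. The same held for 90 of the 92 genes higher at 96 h than at 48 h and for 28 of the 35 lower at 48 h than at 24 h. Hepatocyte markers did not keep the order of these medians: they summed to 16414 CPM in the adult members, 17344 at 96 h, and 8786, 5420 and 5439 at P14, 24 h and 48 h. These sums include single barcodes rich in hepatocyte RNA. With a mitochondrial limit of 15%, which left out some of them, 105 genes were lower at 24 h and 76 at 96 h, instead of 164 and 115. How far such barcodes set the lower calls was not tested. The median share of these markers per barcode was 0.82% at P14, 0.92% in the adult control and 0.36%, 0.16% and 0.98% after 24, 48 and 96 h. By that median 48 h lay below 24 h. Genes are therefore named below from those with under 20% of expected free RNA and a ratio interval that leaves out 1, which were 175 at P14 (8.91% of those compared), 24 at 24 h (1.26%), 25 at 48 h (1.32%) and 27 at 96 h (1.42%), or from pathway lists.

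The compared identity genes stayed within 2-fold of the adult control after PHx. Of 18 listed genes, markers used by the rule left out, 0 of those compared were past 2-fold at 24, 48 or 96 h, and the list's median ratio was 0.03, 0.14 and 0.23, beside 0.05, 0.07 and 0.05 over all genes. Over all compared genes 1.74%, 1.43% and 0.787% were higher and 8.62%, 10.4% and 6.03% lower at these times. For so few genes, a count of 0 lies near those shares. Tcf4 stood at 1282 CPM at P14, 1554 in the adult control and 1950, 1993 and 2123 after 24, 48 and 96 h. Irf8, a transcription factor needed by several dendritic lineages, stood at 1903, 2487, 2325, 2741 and 2951 CPM. Both were lowest at P14 and highest at 96 h, with less than 2-fold between the extremes. In other leukocytes of the same libraries Tcf4 reached no more than 168 CPM in B cells, 15.5 in T cells and 138 in monocytes. Runx2 reached no more than 25.8 CPM in any of these classes, and neither factor was used by the rule.

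At P14 the identity list had a median of −0.28, with 0 of 17 compared genes higher and 2 lower, where 14.8% of all compared genes were lower. The median was 0.18 without members that met another class rule and 0.10 with barcodes thinned to 1000 UMIs, so its sign depends on these choices. Runx2, which guides maturation and bone marrow exit of these cells, was at 224 CPM at P14 and at 508, 459, 522 and 605 in the adult control and at 24, 48 and 96 h, a log2 ratio of −1.15. Ly6d, a surface protein of their lymphoid-like progenitors, was at 941 CPM at P14 and at 2774, 4404, 2650 and 2995 in the 4 adult libraries, a ratio of −1.55. P14 was the lowest library for both genes. Without members of another class the ratios of Runx2 and Ly6d were −0.45 and −0.83, under 2-fold, and without the deepest 10% of barcodes that of Runx2 was −0.84. Klra17, a Ly49 family receptor gene, was at 15.3 CPM at P14 (3 UMIs) and 96.3 in the control adult, under the 100 CPM needed for a comparison.

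**Figure D2:**
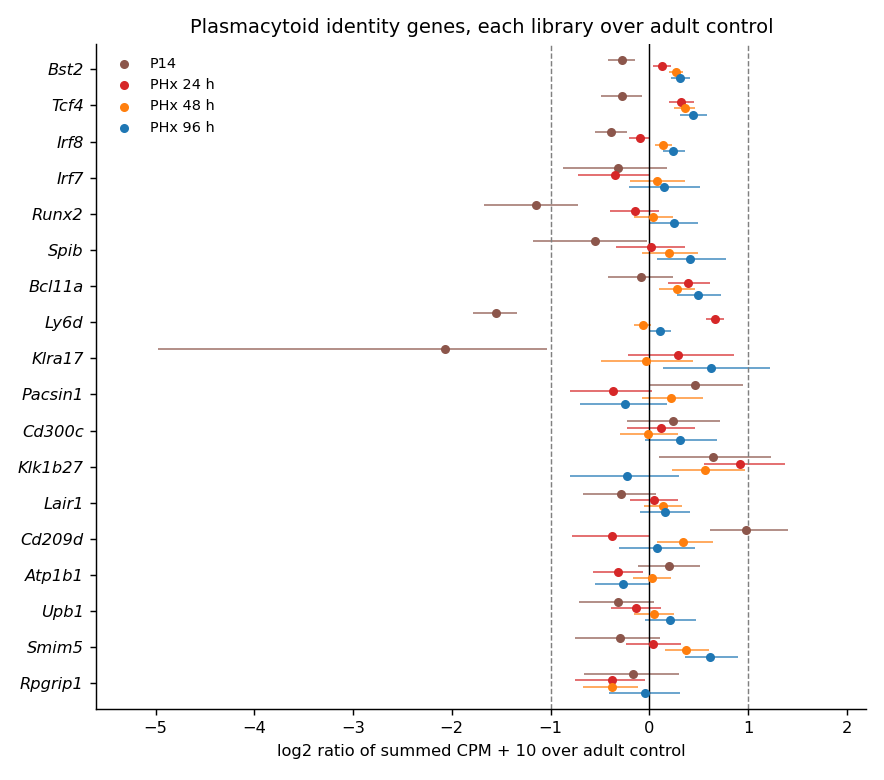
Log2 ratio of CPM plus 10 over the adult control for the identity genes at P14 and 24, 48 and 96 h after PHx; points are ratios, lines are 95% counting intervals of the plain ratio, and dashed lines mark 2-fold. Ratios after PHx lie inside the dashed lines, while Runx2, Ly6d and the uncompared Klra17 lie below them at P14.

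Interferon transcripts were all but missing. The 20 type I and type III interferon genes in the feature table gave 0 UMIs in the members of 4 libraries and 1 UMI, of Ifnz, at 96 h. A count of 0 allows up to 15.3 CPM for P14 and, in adults, up to 5.07 for the control, 5.46 for 24 h and 2.08 for 48 h. The inflammatory cytokine genes Il6, Il12b and Il10 also had 0 UMIs in every library, and Tnf had between 0 and 7. Il12a, which encodes a subunit of interleukin 12, had 3, 5, 13, 34 and 14 UMIs.

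The sensing route upstream was read from a list of TLR7 and TLR9 pathway genes. Unc93b1, the chaperone that carries TLR7 and TLR9 to endosomes, was at 499 CPM at P14, 610 in the adult control and 433, 524 and 482 after 24, 48 and 96 h. Tlr7 was at 45.8, 72.6, 40.1, 85.8 and 68.6 CPM. Its intervals at 24 h (25.1 to 60.6) and 48 h (71.4 to 102) did not overlap, and those of P14, the adult control and 96 h did. Tlr9 gave between 0 and 5 UMIs per library, too few to compare. The TLR7 and TLR9 pathway list had medians of −0.35 (5 genes compared), −0.10 (5), 0.04 (6) and −0.08 (5) at P14, 24, 48 and 96 h. At P14 all 5 compared genes lay below 0. Irf7 and Irf8 belong both to this list and to the identity list, whose P14 median changed sign under other settings. The gene past 2-fold was Lgmn, an endosomal protease, higher at 48 h by 1.07 with 42.4% of its UMIs from 1 barcode, where 1.43% of all compared genes were higher. It did not reach a mean of 100 CPM over the 5 libraries.

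Genes that interferon induces had their highest list median at 48 h. All 9 compared genes of the interferon-stimulated list had a ratio above 0 at 48 h over the adult control, with a median of 0.81 beside 0.07 over all genes, and 2 of the 9 were past 2-fold, where 1.43% of all genes were. Slfn5 and Phf11b reached the 100 CPM needed for this comparison only at 48 h, where they were high. Over the 7 listed genes with a mean of 100 CPM over the 5 libraries, a choice made after seeing the data, the 48 h median was 0.65 beside 0.10 over all genes so chosen, and 1 of the 7 was past 2-fold. The list's median was −0.03 at 24 h (8 genes, 0 past 2-fold) and 0.32 at 96 h (7 genes, 0 past 2-fold). At 48 h over 24 h the median was 0.59 over 10 genes, 3 of them past 2-fold beside 0.627% of all genes (2 of 7 beside 0.442% with genes chosen by their mean), and at 96 h over 48 h it was −0.25 over 9 genes with 0 past 2-fold. The P14 median was 0.51 over 8 genes, with 1 past 2-fold beside 5.65% of all genes. That gene, Slfn5, passed the 100 CPM limit there only through P14. With genes chosen by their mean, the P14 median was 0.48 over 7 genes with 0 past 2-fold. In single barcodes, the median summed level of the list was 68.8 UMIs per 10000 at P14, 61.5 in the adult control and 64.6, 81.7 and 74.0 after 24, 48 and 96 h.

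The promoters of 4 of these genes are shown because they hold a match to the core of the element that interferon-activated factors bind. The interferon-stimulated response element has a core of GAAA, any pair of bases, and GAAA again, which reads TTTC, a pair, TTTC from the other strand. It was searched in the 250 bases before each RefSeq start of GRCm38.p6, on both strands with overlaps allowed. Capitals mark the core with any overlapping copy, flanked by up to 40 bases, and each sequence is written 5′ to 3′ along the gene's own strand. Bst2 (tetherin, which holds budding virus at the membrane) is shown at chr8:71537547-71537642 on the minus strand, Phf11b (a PHD finger protein) at chr14:59341331-59341420 on the minus strand, Slfn5 (a Schlafen family protein) at chr11:82951907-82951996 on the plus strand, and Trim30a (a tripartite motif protein) at chr7:104465194-104465269 on the minus strand.
Bst2: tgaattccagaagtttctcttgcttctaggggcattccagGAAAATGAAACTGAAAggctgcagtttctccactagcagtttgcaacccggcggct
Phf11b: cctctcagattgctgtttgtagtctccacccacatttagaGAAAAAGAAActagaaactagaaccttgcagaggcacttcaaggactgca
Slfn5: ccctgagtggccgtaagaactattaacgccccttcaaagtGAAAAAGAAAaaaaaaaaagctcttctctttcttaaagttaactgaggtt
Trim30a: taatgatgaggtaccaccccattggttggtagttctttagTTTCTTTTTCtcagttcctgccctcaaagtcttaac

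Of the 34 listed interferon-stimulated genes in the feature table, 26 had a promoter in the RefSeq table and 12 of these held the core (46.2%), against 936 of 27025 genes overall (3.46%) and 2.98% of all 32851 promoters. Among the genes compared at 48 h, 7 had a promoter and 4 held the core. A match describes these letters and is no measured binding site. The list was made of genes known to respond to interferon, so its higher share describes the list and not these cells.

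Slfn5 and Ifi27l2a had the largest 48 h ratios of the compared genes of the list. Slfn5 stood at 127 CPM at P14, 25.3 in the adult control and 65.5, 104 and 73.5 after 24, 48 and 96 h, which made it 4.10-fold higher at 48 h than in the adult control (interval 2.41 to 7.51, log2 ratio 1.69). The adult level rested on 15 UMIs, and 60% of the P14 UMIs came from 1 barcode. Ifi27l2a, a small mitochondrial protein gene strongly induced by interferon, stood at 804, 642, 1034, 1431 and 977 CPM. It was 2.23-fold higher at 48 h than in the adult control (2.00 to 2.49, log2 ratio 1.14), and under other settings its log2 ratio ranged from 0.97 to 1.64. The 48 h library was the highest of the adult ones for both genes, and its interval for Ifi27l2a overlapped no other library's.

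The other compared genes of the list had smaller ratios over the adult control. Isg15 (20.3 CPM in the adult control and 83.1 at 48 h) and Ifi44 (13.5 and 53.3) had 48 h ratios of 1.62 and 1.43 but stayed under the 100 CPM needed for a comparison. Sp100, a nuclear body protein, was at 239 CPM at P14, 160 in the adult control and 138, 289 and 247 after 24, 48 and 96 h, and Phf11b at 76.3, 49.0, 41.9, 107 and 78.4 CPM. Their 48 h over 24 h ratios were 1.01 for Sp100 and 1.17 for Phf11b, each past 2-fold. Trim30a was at 275, 194, 228, 364 and 309 CPM, a ratio of 0.87 at 48 h over the adult control. Samhd1, which depletes nucleotides during viral infection, was at 321, 165, 144, 221 and 184 CPM. Irf7, the factor that drives interferon transcription in these cells, was at 204, 257, 200, 272 and 286 CPM with a 48 h ratio of 0.08, and Bst2 was at 2864, 3468, 3796, 4190 and 4322 CPM.

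**Figure D3:**
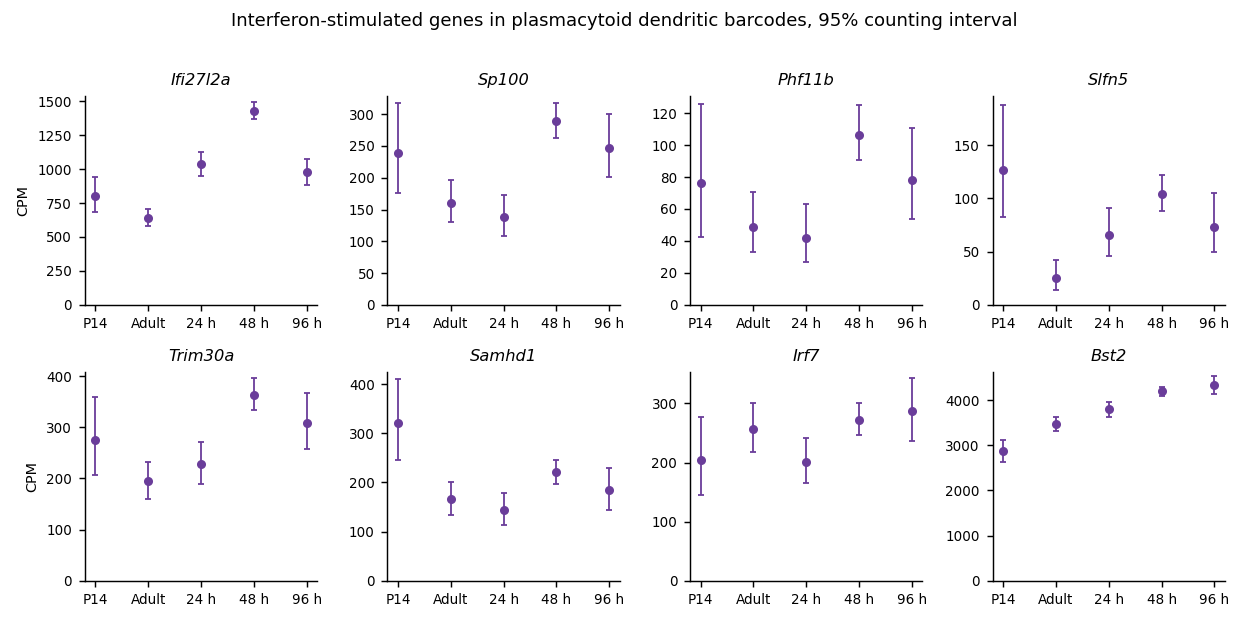
CPM of 8 interferon-stimulated genes in the members of each library, with 95% Poisson intervals. For Ifi27l2a, Sp100, Phf11b, Slfn5 and Trim30a the 48 h point is the highest of the adult libraries, while Irf7 (200 to 286 CPM) moves little.

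Other leukocytes of the same libraries gave lower 48 h medians in the genes that could be compared in both. Mature B cells gave a median of 0.06 over 4 interferon-stimulated genes at 48 h over the adult control, where the members gave 0.60 over the same genes. T cells gave −0.12 over 5 genes against 0.65, and monocytes gave −0.81 over 8 genes against 0.73. Those 8 genes include Slfn5 or Phf11b or both, which passed the 100 CPM limit in the members only through the 48 h library. Other lists in monocytes had 48 h medians on both sides of 0: −0.75 (TLR7 and TLR9 pathway), −2.09 (class II), 0.25 (secretory) and 0.36 (ribosomal). No median over all genes is given here for these classes. The adult monocyte sum holds 11 barcodes, and the difference between cell classes was not tested.

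Of the class II antigen presentation genes, most of those compared were lower at P14. Of the 7 compared genes of the list, 4 were past 2-fold lower at P14 than in the adult control and 0 higher, where 14.8% of all compared genes were lower. The median was −1.43 beside −0.06 over all genes, and it was −0.77 without members that met another class rule and −0.80 with barcodes thinned to 1000 UMIs. Cd74, the invariant chain that guards the class II groove, stood at 1313 CPM at P14, 4336 in the adult control and 2696, 3111 and 3369 after 24, 48 and 96 h. It was 3.30-fold lower at P14 than in the adult control (2.91 to 3.77). H2-Aa, the class II alpha chain, stood at 341, 1050, 608, 777 and 984 CPM, and H2-Ab1, the beta chain, at 270, 745, 530, 747 and 823. All 3 were lowest at P14, and among adult libraries lowest at 24 h. The fourth gene past 2-fold at P14 was H2-DMb1, which acts in loading peptide onto class II, with a ratio of −1.82. Without members of another class H2-Ab1 had a ratio of −0.77, and after thinning Cd74 had one of −0.80, both under 2-fold.

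After PHx, 8.62%, 10.4% and 6.03% of all compared genes were lower at 24, 48 and 96 h, and 1.74%, 1.43% and 0.787% higher. Near these shares for so few genes, the class II list had 0 of 7 compared genes past 2-fold each time. Its medians were −0.43 at 24 h, −0.06 at 48 h and −0.05 at 96 h. Without members that met another class rule, chiefly that of type 2 conventional dendritic cells, the 48 h and 96 h medians were −0.53 and −0.58, and after thinning −0.54 and −0.29. All 7 genes lay below 0 at 24 h over the adult control. The members' own spread was wide: the median summed class II level per barcode was 23.4 UMIs per 10000 at P14 (range 8.65 to 173), 75.6 in the adult control (0 to 355) and 45.4 at 24 h (2.56 to 171). The barcode ranges of the 3 libraries overlapped. Over the same 6 genes, B cells had a P14 median of −4.59 and monocytes of −5.67, where the members had −1.20. H2-Aa in B cells was at 75.5 CPM at P14 and 2655 in the adult control.

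H2-K1 and H2-Q7 of class I were also past 2-fold lower at P14. H2-K1, a classical class I heavy chain, stood at 677 CPM at P14, 2546 in the adult control and 1952, 1868 and 1805 after 24, 48 and 96 h, 3.76-fold lower at P14 than in the adult control (3.15 to 4.53). H2-Q7, a nonclassical class I chain, stood at 25.4, 517, 546, 454 and 411 CPM, 20.3-fold lower at P14 (8.61 to 63.0), and its 5 UMIs at P14 lay in 1 barcode. H2-Q7 has near-identical neighbours, so how reads were split among them is uncertain. H2-D1 (1129, 2214, 2086, 2147 and 2057 CPM) and B2m, the shared light chain (951, 1839, 1826, 1800 and 1893 CPM), were chosen after their values were seen. Their P14 ratios of −0.96 and −0.94 fell just short of 2-fold. P14 was the lowest library for all 4 genes, and H2-K1 was at 501 CPM at P14 against 2299 in the adult control in B cells and at 1696 against 3618 in T cells.

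**Figure D4:**
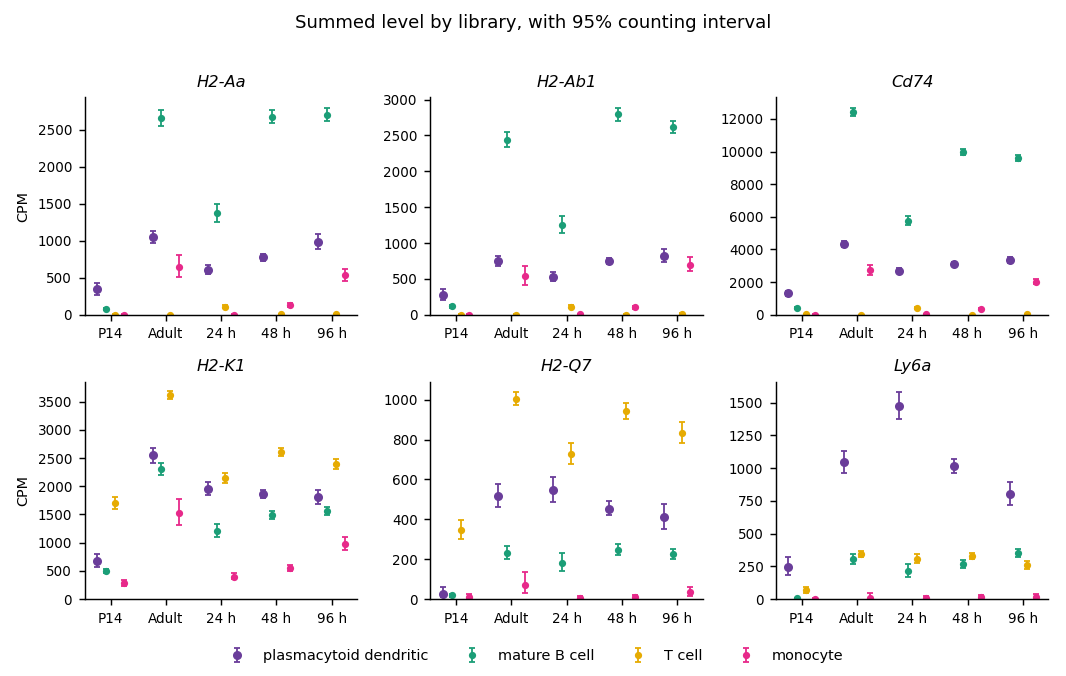
CPM with 95% Poisson intervals of H2-Aa, H2-Ab1, Cd74, H2-K1, H2-Q7 and Ly6a in the members and in mature B cells, T cells and monocytes of the same library. In the members all 6 genes are lowest at P14.

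Ly6a, Lag3, Cd72, Slpi and Cfp were among the further genes lower at P14. Ly6a, also called Sca-1, stood at 244 CPM at P14 and at 1045, 1475, 1013 and 803 in the adult control and at 24, 48 and 96 h, 4.28-fold lower at P14 than in the adult control (3.19 to 5.87). Lag3, an inhibitory receptor that binds class II, stood at 66.1, 214, 202, 256 and 215 CPM, a P14 ratio of −1.56. Both belong to the list of inhibitory and adaptor receptors, of which 2 of 9 compared genes were lower at P14 and 0 higher, with a median of −0.29. Over all compared genes 14.8% were lower. The Lag3 ratio was −0.73 without members of another class and −0.86 after thinning, under 2-fold in both. Cd72, a B-lineage inhibitory receptor, stood at 15.3 CPM at P14 (3 UMIs) against 113 in the adult control, 7.41-fold lower (2.43 to 36.8). Slpi, a secreted protease inhibitor, stood at 35.6, 235, 344, 336 and 137 CPM, with a P14 ratio of −2.42. Cfp, the complement factor properdin, stood at 25.4, 118, 69.2, 100 and 97.9 CPM, with a P14 ratio of −1.86.

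Of genes recalling a lymphoid origin, Dntt had the lowest P14 ratio. It encodes the terminal transferase that adds bases to rearranging antigen receptor genes and is kept on in these cells. Dntt stood at 56.0 CPM at P14 and at 214, 224, 212 and 191 in the adult libraries, 3.83-fold lower at P14 (2.07 to 7.87). The lymphoid origin list had 3 of 6 compared genes lower at P14 and 0 higher, beside 14.8% lower over all compared genes, with a median of −0.74. At 24, 48 and 96 h its medians were 0.03, −0.06 and −0.15 with 0 genes past 2-fold, where 1.74%, 1.43% and 0.787% of all compared genes were higher. The shares lower were 8.62%, 10.4% and 6.03%.

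Mzb1 went the other way. This endoplasmic reticulum chaperone of secreting B-lineage and plasmacytoid cells stood at 626 CPM at P14, 179 in the adult control and 246, 227 and 147 after 24, 48 and 96 h. It was 3.50-fold higher at P14 than in the adult control (2.67 to 4.58), was seen in 12 of the 13 P14 barcodes, and no single one held over 18.7% of its P14 UMIs. In B cells it stood at 791 CPM at P14 and 345 in the adult control. Of the 15 compared genes of the secretory list, Mzb1 included, 1 was higher and 2 were lower at P14, a share near the 14.8% of all genes, and the median was −0.45. Igkc, the kappa light chain constant region, stood at 666, 101, 200, 169 and 323 CPM.

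Many other genes higher at P14 drew much of their count from 1 barcode. Of the 108 genes higher at P14 with little free RNA, 95 drew over 25% of their UMIs from a single barcode. The 1634 UMIs of Camp and 1562 of Ngp, both neutrophil granule proteins, came to 99.9% and 100% from 1 of the 13, and Nts, Ptprb and Fbln2 were of this kind. The deepest P14 barcode held 20.1% of the library's sum. With the deepest 10% of barcodes left out of each library, an alternative chosen after seeing the data, the P14 ratios were −1.78 for H2-K1, −1.55 for Cd74, −1.40 for H2-Aa, −2.02 for Ly6a and 1.90 for Mzb1, each still past 2-fold. The mice also differed in sex-linked genes: Xist, expressed from the inactive X, gave 297 UMIs at P14 and 0, 0, 1 and 1 in the adult libraries, while the Y-linked Ddx3y gave 0 at P14 and 62, 49, 122 and 46. Age, sex of the cells sampled and library cannot be told apart in the P14 comparison.

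Fkbp5 had the largest ratio of the genes higher at 24 h with little free RNA. It encodes a co-chaperone of the glucocorticoid receptor and is a standard target of that receptor. It stood at 20.4 CPM at P14, 6.75 in the adult control and 140, 111 and 46.5 after 24, 48 and 96 h. The adult control was lowest, the 24 h and 48 h intervals lay above those of the other 3 libraries, and 96 h lay between. Fkbp5 was 20.8-fold higher at 24 h than in the adult control (7.79 to 78.1) and 16.5-fold higher at 48 h (6.32 to 61.3), and log2 ratios ranged from 1.74 to 4.19 and from 1.51 to 3.86 under other settings. The adult value came from 4 UMIs in 4 barcodes, the 24 h value from 77 UMIs in 45 of 75 and the 48 h value from 161 UMIs in 93 of 145. After thinning every barcode to 1000 UMIs, it was seen in 0% of adult barcodes, 2.67% at 24 h and 6.90% at 48 h, close to the level of 1 UMI.

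In other leukocytes Fkbp5 moved less. In B cells it stood at 18.2, 18.5, 52.7, 30.5 and 9.43 CPM, in T cells at 44.9, 15.8, 41.8, 29.0 and 24.0, and in monocytes at 40.1, 34.4, 64.6, 55.7 and 22.1. The 24 h library was the highest adult one in all 3 classes. The other genes of the glucocorticoid list did not share the size of the Fkbp5 ratio in the members. Of 4 compared at 24 h, Fkbp5 alone was higher and 1 was lower, with a median of −0.19, and of 5 at 48 h, Fkbp5 alone was higher and 1 lower, with a median of 0.43. Over all compared genes 1.74% were higher and 8.62% lower at 24 h, and 1.43% and 10.4% at 48 h. Fkbp5 passed the 100 CPM limit at 24 h only through the 24 h library, and Fkbp5 and Ddit4 passed it at 48 h only through the 48 h library. Over the 3 listed genes with a mean of 100 CPM over the libraries, 0 were higher and 1 lower at 24 h, with a median of −0.45. At 48 h 0 were higher and 1 lower, with a median of −0.0020.

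Ddit4, an inhibitor of mTOR signalling on the same list, stood at 35.6 CPM at P14, 65.9 in the adult control and 80.1, 123 and 19.6 after 24, 48 and 96 h. It was 6.29-fold lower at 96 h than at 48 h (3.12 to 14.8). Tsc22d3, known as GILZ, stood at 137, 181, 191, 246 and 140 CPM and was nowhere past 2-fold. Ddit4 in T cells stood at 79.9 CPM at 48 h and 4.62 at 96 h, and in B cells at 42.7 and 2.36, so that the low 96 h level was shared by these classes. Cxcr4, the receptor that holds leukocytes to bone marrow and sinusoidal CXCL12, stood at 35.6, 30.4, 69.2, 94.1 and 29.4 CPM and stayed under the 100 CPM needed for a comparison.

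Rbm3, an RNA-binding protein induced by mild cold, was higher than in the adult control in every other library. It stood at 901 CPM at P14, 241 in the adult control and 495, 581 and 833 after 24, 48 and 96 h. The ratios were 1.86, 1.01, 1.23 and 1.74, and the adult interval (204 to 284) overlapped no other library's. The adult control was also the lowest library in B cells (231 CPM, others from 286 to 1802), T cells (291, others from 568 to 1270) and monocytes (473, others from 887 to 1192). Cirbp, the other cold-inducible RNA-binding protein and chosen after its values were seen, stood at 148, 81.1, 71.0, 97.6 and 83.3 CPM, with no such order.

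Tfrc, the transferrin receptor that brings iron into cells, stood at 142 CPM at P14, 57.4 in the adult control and 157, 122 and 193 after 24, 48 and 96 h. The ratios over the adult control were 1.18, 1.30, 0.97 and 1.59, and only that at 48 h fell short of 2-fold. In B cells Tfrc stood at no more than 79.5 CPM, in T cells at 32.8 and in monocytes at 30.1, each at P14.

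Stip1, the adaptor between HSP70 and HSP90, was lower than in the adult control in every other library. It stood at 40.7 CPM at P14, 171 in the adult control and 69.2, 76.1 and 53.9 after 24, 48 and 96 h. Its ratios were −1.83, −1.19, −1.07 and −1.50, so it was past 2-fold in each, and the adult interval (139 to 207) overlapped no other library's. With a pseudocount of 50 CPM the 24 h and 48 h ratios were −0.89 and −0.81, under 2-fold. Hsp90ab1, the constitutive HSP90 and chosen after its values were seen, stood at 1236, 2660, 1598, 1643 and 1178 CPM, with ratios of −1.10, −0.73, −0.69 and −1.17, past 2-fold at P14 and 96 h only. Hsp90aa1, the inducible form, stood at 310, 721, 386, 599 and 328 CPM and was past 2-fold lower at P14 and at 96 h. Without members of another class neither HSP90 gene was past 2-fold: the P14 and 96 h ratios were −0.58 and −0.83 for Hsp90ab1 and −0.57 and −0.54 for Hsp90aa1.

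In T cells Stip1 stood at 84.1 CPM in the adult control and between 62.9 and 81.2 elsewhere. In B cells it stood at 137 CPM at P14, 71.6 in the adult control and 55.5, 58.8 and 39.3 after 24, 48 and 96 h, and in monocytes at 60.2, 68.8, 76.8, 58.6 and 44.2. Hsp90ab1 in B cells stood at 3460, 1583, 879, 775 and 681 CPM, in T cells at 1960, 1845, 1201, 1129 and 1248 and in monocytes at 1666, 1523, 2018, 1457 and 1839. For Hsp90ab1 in B and T cells the adult control was the highest of the adult libraries, as in the members, and P14 was higher still.

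**Figure D5:**
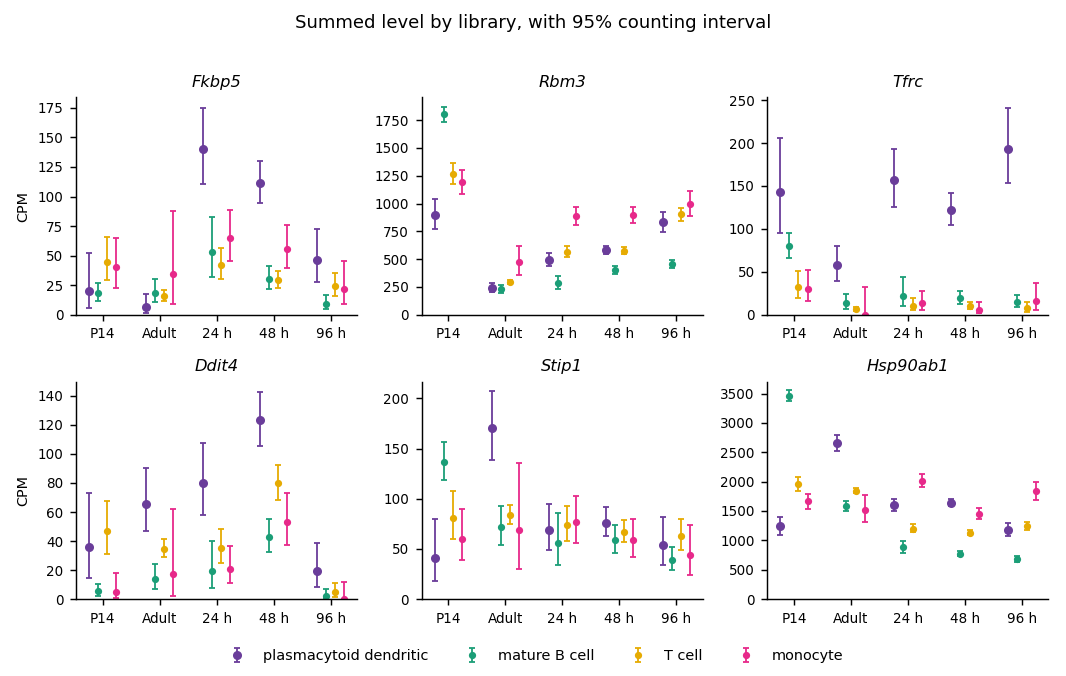
CPM with 95% Poisson intervals of Fkbp5, Rbm3, Tfrc, Ddit4, Stip1 and Hsp90ab1 in the members and in mature B cells, T cells and monocytes. In the members Fkbp5 is highest at 24 h and 48 h, Rbm3 and Tfrc are lowest in the adult control, Stip1 and Hsp90ab1 are highest there, and Ddit4 is lowest at 96 h.

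Cdh5, Fos, Crip1 and Ccl4 were also higher at 24 h. Cdh5, the vascular cadherin, stood at 61.1 CPM at P14, 65.9 in the adult control and 209, 127 and 93.1 after 24, 48 and 96 h, 3.18-fold higher at 24 h than in the adult control (2.19 to 4.70). It was seen in 55 of the 75 barcodes at 24 h, 0 of which met the endothelial rule, and the 4 endothelial markers summed to 14.6 CPM in these members. Fos, an immediate early transcription factor also raised by tissue dissociation, stood at 25.4, 37.2, 137, 82.4 and 53.9 CPM, a 24 h ratio of 1.64. The dissociation and early response list as a whole had a 24 h median of −0.00 over 7 genes with Fos alone past 2-fold. Fos passed the 100 CPM limit there only through the 24 h library. Over the 5 listed genes with a mean of 100 CPM over the libraries, 0 were past 2-fold and the median was −0.13. The migration and adhesion list had 0 of 11 past 2-fold at 24 h with a median of 0.03. Over all compared genes 1.74% were higher and 8.62% lower at 24 h. Crip1, a LIM domain protein, stood at 946, 550, 1364, 1048 and 842 CPM, a 24 h ratio of 1.29. Ccl4, an inflammatory chemokine, had a 24 h ratio of 1.17, with 32.1% of its 24 h UMIs and 85.3% of its adult UMIs in 1 barcode.

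Cd44 and Nfkbia differed from the adult control at 96 h in opposite directions. Cd44, the hyaluronan receptor, stood at 244 CPM at P14, 130 in the adult control and 173, 208 and 279 after 24, 48 and 96 h, 2.15-fold higher at 96 h than in the adult control (1.59 to 2.91, log2 ratio 1.05). Under 7 of 11 other settings the ratio was under 2-fold, down to 0.47. Nfkbia, the inhibitor that NF-kB induces, stood at 188, 106, 96.5, 145 and 39.2 CPM, 2.72-fold lower at 96 h than in the adult control (1.55 to 5.04), and with a pseudocount of 50 CPM its log2 ratio was −0.81, under 2-fold. It was lowest at 96 h, with an interval (22.4 to 63.6) below that of each other library. Nfkbia belongs to the dissociation and early response list, which had 2 of 5 compared genes lower at 96 h and 0 higher, with a median of −0.26, beside 6.03% lower over all genes. The migration and adhesion list, to which Cd44 belongs, had a 96 h median of −0.08 with Cd44 as the 1 gene past 2-fold of 11. Over all compared genes 0.787% were higher at 96 h. The list's median was 0.04 over the 10 genes with a mean of 100 CPM over the libraries.

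Several of the highest 48 h ratios belonged to genes known from T cells or hepatocytes, and their source here was not tested. Ccl5, a chemokine of T and NK cells, gave 181 UMIs at 48 h and 0 in the adult control, in 10 of the 145 barcodes, and its log2 ratio fell from 3.76 to 0.32 without members that met another class rule. The acute phase genes of hepatocytes summed to 2864 CPM at P14, 2471 in the adult control and 10780, 10431 and 1516 after 24, 48 and 96 h in the members, with up to 74% of a gene's UMIs expected from free RNA. For Orm2, Saa1 and Apcs, liver plasma proteins among the highest 48 h ratios (3.69, 2.88 and 1.73), that part was 11.2%, 17.9% and 19.4%, and 56.8%, 36.4% and 41.3% of their 48 h UMIs lay in 1 barcode. In the adult control, the neutrophil genes S100a8, S100a9 and Retnlg were seen in 5, 4 and 3 barcodes, and all 139 UMIs of the granule gene Mpo lay in 1. Without members of another class the 48 h ratios of S100a8 and S100a9 turned positive, at 1.63 and 1.84.

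Transcripts of cell division were unevenly spread. Mitosis genes summed to 697 CPM at P14, 28.7 in the adult control and 171, 238 and 2.45 after 24, 48 and 96 h, and barcodes with at least 3 such genes numbered 3, 1, 2, 5 and 0. With 0 of 49 barcodes at 96 h and 3 of 13 at P14, the summed level followed a few barcodes. Replication genes summed to 712, 245, 373, 274 and 176 CPM, and barcodes with at least 3 of them numbered 7 of 13, 5 of 62, 14 of 75, 17 of 145 and 6 of 49. Most cytosolic ribosomal protein genes had small ratios above 0 over the adult control, with medians of 0.30, 0.32, 0.28 and 0.30 at P14, 24, 48 and 96 h. Of the 77 compared genes, 74, 72, 74 and 75 lay above 0, and 0, 1, 0 and 0 were called higher. Over all compared genes 5.65%, 1.74%, 1.43% and 0.787% were higher. Over the same genes B cells had 0.33, 0.28, 0.34 and 0.35, T cells 0.00, 0.22, 0.35 and 0.28, and monocytes 0.24, 0.39, 0.36 and 0.38. The shift was thus met in the other leukocytes of these libraries, apart from T cells at P14.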

How the data were processed

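The submitters' processing notes name bcl2fastq 2.17.1.14, Cell Ranger, Seurat 3.1 and mm10, without role or order. The matrix headers name software version 3.0.2, and the aligner settings and annotation are not given in the sources used here. Per the file headers and values, the authors deposited raw UMI counts of all 6794880 possible barcodes and 31053 genes per library, with 80927744 to 136110607 UMIs each. Barcodes with at least 1000 UMIs, 500 genes and under 30% mitochondrial UMIs numbered 5502 at P14, 67862 in the adult control, 10174, 4128 and 16477 at 24, 48 and 96 h. Most of those in the adult control lie at the level of its free RNA, so shares were taken over leukocyte barcodes. In that library the ranks taken as free RNA fall largely among these same passing barcodes, so the match in depth follows in part from the choice of ranks.

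Groups follow the sample titles. Counts of the members were summed per library and scaled to CPM over totals without the 13 mitochondrial genes. Log2 ratios used a pseudocount of 10 CPM. Intervals are exact Poisson for a level, conditional binomial for a ratio and Clopper-Pearson for a share, at 95%. The limit that a count of 0 allows is 3 counts of the total. Expected free RNA per barcode is the median UMIs of barcodes ranked after 20000 and up to 60000, spread by their summed profile. The genes named outside the 21 lists are the 10 highest and 10 lowest ratios per library over the adult control with at least 100 CPM in either, a 2-fold difference, an interval leaving out 1 and under 20% free RNA. Mitochondrial genes and the 4 markers were left out of this rule. The members and lists were chosen with earlier results of these data known, and genes outside lists and rule are marked where they appear. Mature B, T and monocyte barcodes were classed by 4 markers each, without members and without barcodes of another class. In all, 15 alternatives were computed, 4 of them chosen after the data were seen. The scripts ran on Python 3.11.15, numpy 2.4.6, scipy 1.17.1, pandas 2.3.3 and matplotlib 3.10.9, with edgeR 4.0.16 for TMM factors alone, and were tested on simulated data. Promoter sequences are from RefSeq on GRCm38.p6. Some listed or named genes are not reported here.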

Additional observations from a re-analysis of the deposited data

How the results depend on the processing

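No paired analysis was possible because the labels share no replicate numbers and each group is 1 library, which also means that no replicate could be left out. Depth limits P14 most, with 13 barcodes. The counts of genes past 2-fold over the adult control (P14, 24, 48 and 96 h) were 111, 33, 27 and 15 higher and 290, 164, 197 and 115 lower, and the cause of each shift below was not tested unless the setting itself compares fewer or more genes.

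With a 50 CPM minimum they were 268, 66, 51 and 42 higher and 494, 291, 339 and 198 lower, with a 200 CPM minimum 40, 16, 12 and 8 higher and 138, 83, 100 and 54 lower, and with no minimum 957, 160, 155 and 131 higher and 1237, 602, 610 and 489 lower. At the 50 CPM minimum the 96 h interferon-stimulated median was 0.58, and the medians of the sex-linked list at P14 (−3.29) and of the cytokine and effector list at 48 h (−0.19) changed sign. With genes kept at a mean of 100 CPM over the libraries, chosen after seeing the data, 35, 20 and 15 genes were higher at P14, 24 and 48 h. Lower were 164, 79, 96 and 54 in the 4 comparisons, and the 24 h interferon-stimulated median was −0.19. Medians that changed sign at 24 h were those of the cytokine and effector list (−0.45) and the inhibitory and adaptor receptor list (−0.017). At 48 h they were those of the cytokine and effector (−0.19), glucocorticoid (−0.0020), dissociation and early response (−0.084) and sex-linked lists (0.097). At 96 h they were those of the migration and adhesion list (0.044) and the secretory list (−0.022). A pseudocount of 50 CPM gave 68, 16 and 7 genes higher at P14, 48 and 96 h and 71 lower at 96 h.

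Members thinned to 1000 UMIs gave 621, 278, 192 and 293 genes higher and 644, 373, 388 and 378 lower. The class II medians were then −0.80 at P14, −0.54 at 48 h and −0.29 at 96 h, the identity medians 0.10 at P14, 0.18 at 24 h and 0.090 at 96 h, and the interferon-stimulated medians 1.05 at 48 h and 0.58 at 96 h. Dmxl1 at 24 h (−0.080), Glul at 48 h (−0.95) and Mrps26 at 96 h (−0.064) changed sign.

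With free RNA subtracted, 101, 83 and 71 genes were lower at 24, 48 and 96 h and 23 higher at 96 h, the identity median was −0.44 at P14 and 0.030 at 48 h, and the class II median at 48 h was −0.23. With free RNA scaled on hepatocyte markers, 99 and 80 genes were lower at 24 and 48 h, with the same identity and class II values of −0.44, 0.030 and −0.23. A mitochondrial limit of 15% gave 105 and 76 genes lower at 24 and 96 h, 23 higher at 96 h, identity medians of −0.40 at P14 and 0.067 at 48 h, an interferon-stimulated median of 0.21 at 96 h and Glul at −0.80 at 48 h. With at least 3 markers Glul was at −0.82.

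Without members that met another class rule, 167, 73, 54 and 44 genes were higher and 265 lower at 24 h. The class II medians were −0.77 at P14, −0.53 at 48 h and −0.58 at 96 h and the identity medians 0.18 at P14 and 0.043 at 48 h. Several neutrophil and granule genes turned positive: at 24 h Prtn3 (2.31), Lyz2 (0.66) and S100a9 (1.26), at 48 h S100a9 (1.84), Retnlg (0.17), S100a8 (1.63) and Prtn3 (2.54), and at 96 h S100a8 (0.13). Mpo went to 0 in each comparison, and S100a9 and Lyz2 stayed at −0.38 at 96 h. Ifitm1 turned negative at 24 h (−0.38). Of leukocyte barcodes the members then made up 3.49% in the control adult and 8.95%, 7.03% and 4.97% at 24, 48 and 96 h, and over all passing barcodes they were 0.236%, 0.0914%, 0.737%, 3.51% and 0.297% from P14 on.

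Keeping those that met the type 2 conventional dendritic rule, an alternative chosen after seeing the data, Prtn3 (2.05), Lyz2 (0.35), S100a9 (1.64) and Ifitm1 (−0.0029) changed sign at 24 h, S100a9 (2.16), Retnlg (0.11), S100a8 (1.35), Prtn3 (2.28) and AW112010 (−0.15) at 48 h, and S100a8 (0.33) and Prtn3 (0.81) at 96 h, with a class II median of −0.19 and an identity median of 0.066 at 48 h. Without the deepest 10% of members, also chosen after seeing the data, Hist1h2ap at P14 (−0.051), Prtn3 (1.10), Ifitm1 (−1.95) and Lgals3 (−0.31) at 24 h, Prtn3 (1.47) and Glul (−0.94) at 48 h and Stmn1 (0.20) at 96 h changed sign. The class II medians were then −0.41 at 48 h and −0.33 at 96 h, the identity medians 0.069 and 0.12, and the 96 h interferon-stimulated median 0.17.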
